A study of Mus musculus with 14 samples.

Results

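Polycomb and H2A ubiquitin regulators were followed in total and ribosome-bound RNA of the juvenile mouse testis. The 10 genes, Scml2, Ezh1, Ezh2, Eed, Suz12, Rnf2, Ring1, Bmi1, Usp7 and Mysm1, were chosen by name from 53239 annotated gene symbols, and all 10 had counts in all 14 libraries. Each gene's value is the sum of the expected counts over its Ensembl transcripts, assigned with GENCODE M21. An expected count is the number of reads that RSEM attributes to a transcript, and all 10 genes passed the filter on low counts in every comparison.

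The libraries came from testes of Adad2 M/M mice (Adad2 mutant, n = 4, animals 12, 69, 93 and 94) and of Adad2 +/+ mice (wild type, n = 3, animals 121, 140 and 17), all C57BL/6 and 21 dpp. Every animal was heterozygous for Rpl22-HA (RiboTag), a ribosomal protein that gains an HA tag after Cre recombination, and for Stra8-iCre, which drives recombination in differentiating germ cells. For each animal a lysate was sampled before pull-down (input) and after pull-down with anti-HA antibody (IP). The IP thus reports ribosome-bound RNA of tagged germ cells, the input holds RNA of all testis cells, and no IP from untagged animals was analysed here. Values are listed in the animal order given above throughout.

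Polycomb proteins act as 2 main complexes that mark silent chromatin. PRC2 holds either EZH1 or EZH2, which methylate H3K27, with EED and SUZ12 as core subunits. PRC1 holds the RING ligases RNF2 or RING1, which monoubiquitinate H2A, paired with a PCGF subunit such as BMI1. SCML2 is a germline protein of the Scm family that associates with PRC1 and with USP7, a ubiquitin-specific protease. It is known for limiting ubiquitination of H2A on the sex chromosomes, where it recruits USP7, and for repression of somatic genes during meiosis in mouse. MYSM1 removes ubiquitin from H2A. The sex chromosomes of pachytene spermatocytes are silenced within the XY body, where the ubiquitination of H2A is regulated as pachytene proceeds.

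The results below turn partly on which transcript of Scml2 and Rnf2 the counts were given to, so the stretches that tell these transcripts apart are shown first, all on GRCm38 with GENCODE M21 exons. Scml2 lies at chrX:161117193-161258213 on the plus strand. Scml2-205, of 2931 nt and 23 exons, begins at position 161117193, and its start codon lies at 161117319 near that start. Scml2-201, of 4842 nt and 26 exons, begins 45579 nt downstream. The 2 transcripts share 18 exons and the stop codon at 161256571, after which the 3′ untranslated region has 327 nt in Scml2-205 and 1623 nt in Scml2-201. Scml2-205 alone of the pair holds exons upstream of the Scml2-201 start, and 3 of its exons are 78 bases long. Exons 2 and 3 (chrX:161121024-161121101 and chrX:161144763-161144840) are printed because they separate Scml2-205 from Scml2-201, with capitals at the 24 positions where they differ from each other. Exon 2 is identical to 1 other exon of the transcript, so that 2 of its exons carry the same letters.
Scml2-205 exon 2: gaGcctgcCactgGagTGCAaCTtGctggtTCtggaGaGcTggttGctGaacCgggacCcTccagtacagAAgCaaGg
Scml2-205 exon 3: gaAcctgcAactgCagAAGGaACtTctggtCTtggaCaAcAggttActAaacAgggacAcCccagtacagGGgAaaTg

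Further downstream Scml2 holds a run of exons of 84 bases, 12 in Scml2-201 and 6 in Scml2-205. Exons 12 and 14 of Scml2-201 (chrX:161221666-161221749 and chrX:161224461-161224544) are shown as an example of how alike they are, with capitals at the 2 positions where they differ. The letters of exon 12 occur in 6 of the 12 such exons of Scml2-201 and in 2 of the 6 of Scml2-205, and those of exon 14 in 2 of the 12. A read that lies within 1 of these identical exons has no letters of its own by which to place it, so the split between Scml2 transcripts is an estimate of RSEM.
Scml2-201 exon 12: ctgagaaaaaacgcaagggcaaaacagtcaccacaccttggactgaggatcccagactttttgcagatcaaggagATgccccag
Scml2-201 exon 14: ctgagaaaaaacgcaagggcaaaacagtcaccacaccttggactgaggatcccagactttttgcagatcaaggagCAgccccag

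Rnf2 lies at chr1:151458004-151500955 on the minus strand. Rnf2-201 is a coding transcript of 3160 nt, with 1910 nt of 3′ untranslated region, and Rnf2-203, of 1106 nt, is a coding transcript that ends after 194 nt of it. Rnf2-202 is annotated as a processed transcript of 570 nt in 4 exons, and 544 of its bases lie inside exons of Rnf2-201. Its first exon (chr1:151474094-151474119) is shown because its bases lie outside the exons of Rnf2-201.
Rnf2-202 exon 1: taaaattacagtaaatatctaacaag

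**Figure D1:**
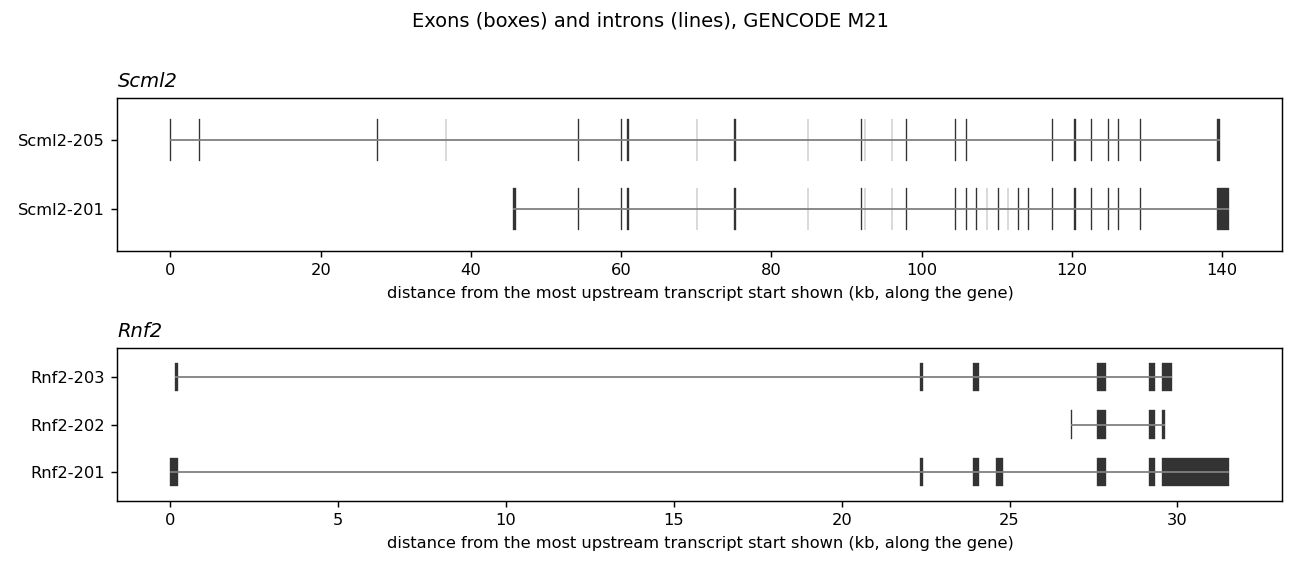
Exons (boxes) and introns (lines) of 2 Scml2 and 3 Rnf2 transcripts, drawn to scale as distance in kb from the most upstream start shown for each gene. Scml2-205 begins 45579 nt before Scml2-201, and Rnf2-202 lies within the span of Rnf2-201.

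Between 25037235 and 30871330 counts were assigned in the IP libraries, and between 22987974 and 30330450 in the input libraries. Adad2 itself had 6.33 to 11.3 CPM in mutant IP libraries and 99.2 to 109 CPM in wild-type IP libraries, and 5.04 to 11.3 CPM in mutant input and 25.0 to 30.1 CPM in wild-type input, as labelled. All 4 mutant IP libraries detected fewer annotated genes, 12744 to 15024, than the wild-type IP libraries, 19655 to 21880. Input libraries ranged from 15438 (mutant 69) and 16024 (mutant 12) through 21334 and 27002 for the remaining mutants, against 25319 to 27791 in wild type. The summed level of 10 late pachytene markers was 4629 to 4813 CPM in mutant IP and 6203 to 6850 CPM in wild-type IP, and 1862 to 2336 CPM in mutant input and 2749 to 3276 CPM in wild-type input, without overlap in either fraction. The sum of 10 round spermatid markers was 165 to 212 CPM in mutant input and 313 to 382 CPM in wild-type input. That of 10 Sertoli markers was 970 to 1436 CPM in mutant input and 877 to 998 CPM in wild-type input, while in IP it was 169 to 282 CPM in mutants and 218 to 359 CPM in wild type. The part of these differences in the results on the 10 genes was not tested, and in bulk samples fewer cells of a type and less RNA per cell cannot be told apart. The smallest count behind any value of the 10 genes was 310.2, for Ring1 in mutant input 12.

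Ribosome-bound RNA was first set against total RNA. In mutants, 3 of the 10 genes, Scml2, Ring1 and Usp7, were higher in IP than in input at an adjusted p under 0.05 (edgeR quasi-likelihood test with the animal as a block and Benjamini-Hochberg adjustment over 22918 features), and none was lower. Over all features 9.91% were called in mutants, 6.35% higher and 3.56% lower. Of the 15479 annotated features among these, 1329 were higher and 652 lower. In wild type 6 of the 10, namely Ring1, Scml2, Ezh2, Eed, Usp7 and Ezh1, were higher and none lower, where 19.4% of 34864 features were called, 13.0% higher and 6.37% lower. Of the 19175 annotated features among these, 3844 were higher and 1407 lower. The median log2 difference of the 10 genes was 0.43 in mutants, where all annotated features tested had −0.34, and 0.77 in wild type, where they had −0.15. Whether the number of genes called differed between the genotypes was not tested. In mutants 0 of the 10 genes were called when any 1 animal was left out, and 0 without animals 12 and 69 together. In wild type 0 were called without animal 121 or without animal 140, and 2 without animal 17. With all 14 libraries scaled and fitted together the wild-type values of all features shifted by −0.31 (median, log2), and 6 of the 10 genes were called in mutants and 0 in wild type. That fit called 3758 of 41559 features in mutants and 2180 in wild type.

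Levels by library are given below as CPM scaled over all 14 libraries, so that IP, input and both genotypes share 1 scale. On that scale the ratio of IP to input lay above 1 in all 7 animals for 6 genes (Ezh2, Eed, Rnf2, Ring1, Scml2 and Usp7), a pattern seen in 30.2% of 10310 features with counts in every library. It lay below 1 in all 7 animals for 1 gene, Bmi1, a pattern seen in 22.3% of those features. The log2 differences with SE given below for IP against input came instead from a separate fit for each genotype. Those of mutants and wild type therefore do not share 1 scale. In the fit of all 14 libraries the median shift of all features was −0.31 in wild type and 0.0016 in mutants.

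**Figure D2:**
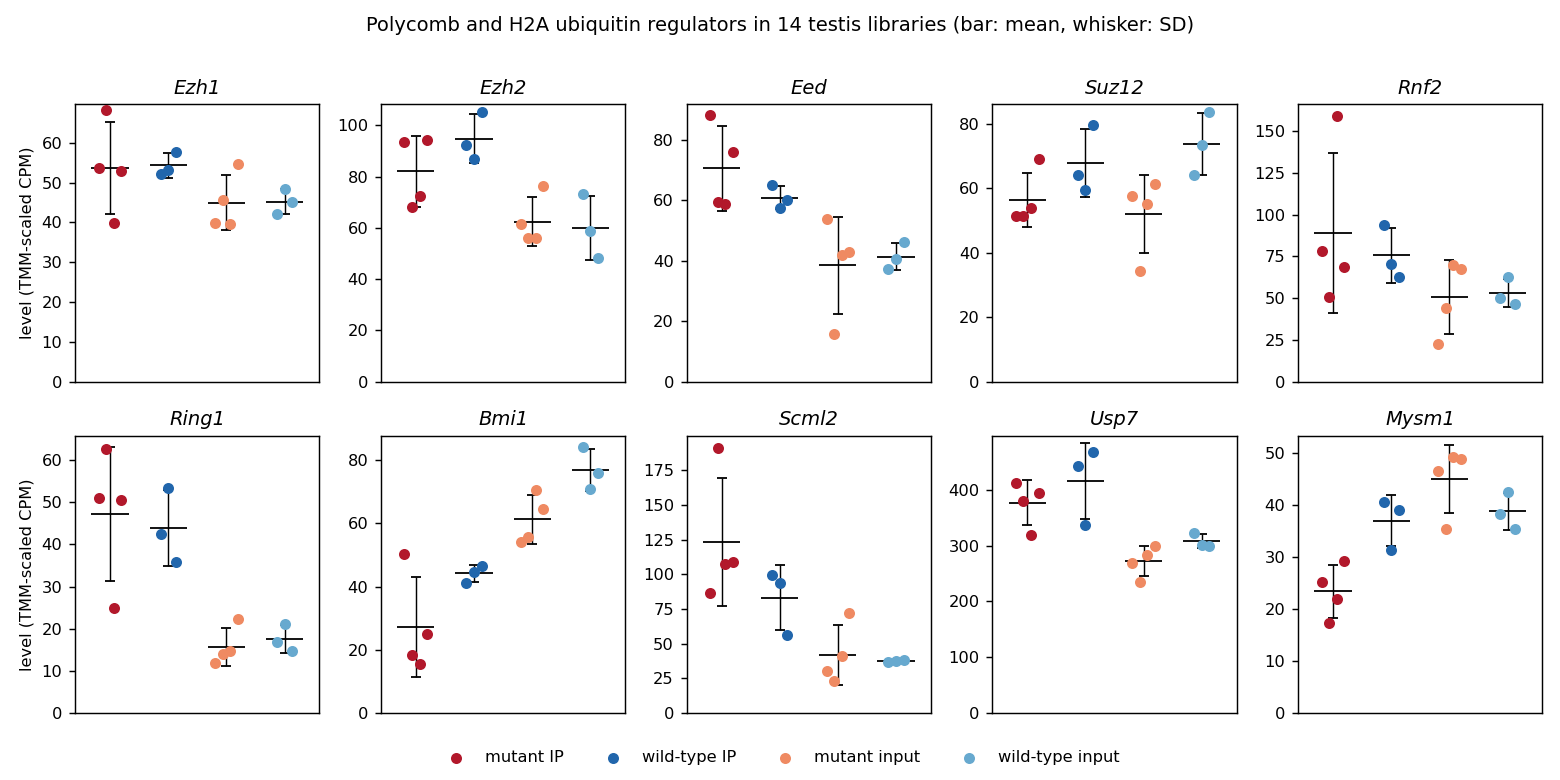
Level of each gene in the 14 libraries (vertical axis, CPM scaled over all libraries, from 0), with mutant IP, wild-type IP, mutant input and wild-type input from left to right, points for animals, bars for means and whiskers for SD. Ring1 lies higher in every IP library (24.8 to 62.5 CPM) than in any input library (11.8 to 22.2 CPM), and Mysm1 in mutant IP (17.2 to 29.2 CPM) lies below wild-type IP (31.3 to 40.6 CPM).

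Of the PRC2 subunits, Ezh2, Eed and Ezh1 were called higher in IP in wild type, and Suz12 was not. Ezh2, the H3K27 methyltransferase that prevails in dividing cells, had 93.5, 68.0, 72.3 and 94.4 CPM in mutant IP, against 61.5, 56.0, 55.9 and 76.5 CPM in mutant input. In wild type it had 92.3, 86.9 and 105 CPM in IP and 73.2, 58.8 and 48.3 CPM in input. Every animal had more Ezh2 in IP than in input, and the widest gap was that of wild-type animal 17. Between IP and input Ezh2 differed by 0.39 (log2, SE 0.16, edgeR adjusted p = 0.2275) in mutants and by 0.99 (SE 0.18, edgeR adjusted p = 0.03289) in wild type.

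Ezh1, the paralog of Ezh2 that is retained in non-dividing cells, had 53.7, 68.2, 39.9 and 52.9 CPM in mutant IP, against 40.0, 45.7, 39.7 and 54.7 CPM in mutant input. In wild type Ezh1 had 52.1, 53.1 and 57.8 CPM in IP and 42.1, 48.4 and 45.2 CPM in input. The IP and input ranges of Ezh1 overlapped in mutants and did not in wild type. Its log2 difference was 0.24 (SE 0.20, edgeR adjusted p = 0.506) in mutants and 0.58 (SE 0.11, edgeR adjusted p = 0.0407) in wild type, each from its own fit. On the scale shared by all 14 libraries the mean log2 ratio of Ezh1 was 0.241 in mutants and 0.265 in wild type.

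Eed, which binds methylated H3K27 within PRC2, had 88.1, 59.4, 58.8 and 75.9 CPM in mutant IP, against 53.7, 15.9, 41.8 and 42.8 CPM in mutant input. In wild type Eed had 65.0, 57.6 and 60.0 CPM in IP and 37.3, 40.4 and 46.3 CPM in input. No input library reached the level of an IP library, and the lowest value by far was that of mutant input 69, whose IP was 3.74 times its input. Eed differed by 0.98 (log2, SE 0.27, edgeR adjusted p = 0.08747) in mutants and by 0.87 (SE 0.15, edgeR adjusted p = 0.02746) in wild type. The mutant value was called higher in 5 of 14 alternatives, DESeq2 among them, with adjusted p from 0.00288 to 0.3043. DESeq2 called 3192 of 22918 features higher in mutants. The 5′ end of Eed overlaps E230029C05Rik on the other strand, and the libraries were stranded. Gm45120 lies within the span of Eed on the same strand and had 0.9 to 65.0 counts per library.

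Suz12, the PRC2 subunit that holds the core together, had 51.5, 51.5, 54.0 and 69.0 CPM in mutant IP, against 57.6, 34.4, 55.0 and 61.5 CPM in mutant input. In wild type Suz12 had 64.3, 59.6 and 79.7 CPM in IP and 64.2, 73.4 and 83.7 CPM in input. IP and input overlapped in both genotypes, with log2 differences of 0.14 (SE 0.21, edgeR adjusted p = 0.7357) in mutants and 0.19 (SE 0.12, edgeR adjusted p = 0.3328) in wild type. With all 14 libraries fitted together the wild-type value of Suz12 was −0.12. Whether Suz12 differed from the other PRC2 genes in this was not tested.

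Of the PRC1 subunits, Ring1 stood higher in IP in both genotypes, Rnf2 and Bmi1 did not pass the test in that fit, and the values of Bmi1 were below 0. Ring1, a RING ligase for H2A, had 51.0, 62.5, 24.8 and 50.5 CPM in mutant IP, against 11.8, 14.1, 14.7 and 22.2 CPM in mutant input. In wild type Ring1 had 42.4, 53.4 and 35.8 CPM in IP and 17.0, 21.2 and 14.6 CPM in input. Every IP library exceeded every input library, and the ratio of IP to input was 1.69 to 4.44 in the mutants and 2.45 to 2.52 in the wild-type animals. The log2 difference of Ring1 was 1.55 (SE 0.36, edgeR adjusted p = 0.04919) in mutants and 1.63 (SE 0.12, edgeR adjusted p = 0.006532) in wild type.

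Rnf2 (RING1B), the other RING ligase, had 78.0, 50.8, 159 and 68.5 CPM in mutant IP, against 22.5, 44.0, 69.6 and 67.4 CPM in mutant input. In wild type Rnf2 had 93.8, 70.2 and 62.6 CPM in IP and 49.9, 62.7 and 46.5 CPM in input. Each animal had at least slightly more Rnf2 in IP, with a ratio of 1.02 in mutant 94 and of 3.48 in mutant 12, so the animals disagreed on the size. For Rnf2 the log2 difference was 0.80 (SE 0.33, edgeR adjusted p = 0.2244) in mutants and 0.81 (SE 0.20, edgeR adjusted p = 0.06915) in wild type. The mutant value was called higher in 1 of 14 alternatives (adjusted p from 0.0009287 to 0.5656) and the wild-type value in 6 of 12 (0.0001733 to 0.5764), the fit without the animal as a block among them (edgeR adjusted p = 0.02946). Without the block 5681 of 34864 features were called higher in wild type. The downstream end of Rnf2 overlaps Trmt1l on the other strand. Gm36527 lies within the span of Rnf2 on the same strand and had 0 to 74.0 counts per library.

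Bmi1 (PCGF4), a partner of the RING ligases in canonical PRC1, had 50.3, 18.4, 15.4 and 25.0 CPM in mutant IP, against 54.1, 55.5, 70.5 and 64.6 CPM in mutant input. In wild type Bmi1 had 41.2, 44.5 and 46.6 CPM in IP and 84.0, 70.7 and 75.8 CPM in input. The IP value lay below the input value in all 7 animals, and mutant IP 12 stood well above the other 3 mutant IP libraries. The log2 difference of Bmi1 was −1.33 (SE 0.37, edgeR adjusted p = 0.0918) in mutants and −0.49 (SE 0.11, edgeR adjusted p = 0.0514) in wild type, so neither passed the threshold in that fit. Bmi1 was called lower in IP in 5 of 14 alternatives in mutants (adjusted p from 0.0006704 to 0.93) and in 5 of 12 in wild type (5.792e-05 to 0.9653), DESeq2 among them in both, and in wild type also without the animal as a block (edgeR adjusted p = 0.01399). DESeq2 called 6847 of 22918 features lower in mutants and 10862 of 34864 in wild type. Without the block 4589 of 34864 features were called lower in wild type. In TPM, which is divided by length and lacks the scaling of the CPM, the ordering was not kept. Bmi1 had 73.0 TPM in mutant IP 12 and 15.4 to 18.1 TPM in the other mutant IP libraries, against 13.4 to 32.7 TPM in mutant input. On log2 TPM in limma its IP difference was 0.085 in mutants and 0.018 in wild type. In that fit 7 of the 10 genes were called higher in IP in mutants and 8 in wild type, and 0 lower. Of all features it called 4846 of 22918 higher and 1196 lower in mutants. In wild type it called 7737 of 34864 higher and 2898 lower. The parts of length and of scaling in this were not tested.

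Scml2 had the largest difference between IP and input of the 10 genes in mutants and, after Ring1, the next largest in wild type. It had 86.4, 191, 108 and 109 CPM in mutant IP, against 30.0, 23.3, 40.9 and 72.4 CPM in mutant input. In wild type Scml2 had 99.7, 93.5 and 56.4 CPM in IP and 36.6, 37.8 and 38.2 CPM in input. Each animal's IP exceeded its input, at 8.21 times the input in mutant 69 and 1.48 times in wild-type animal 17. Wild-type input values lay within 2 CPM of each other, while mutant input ranged from the lowest to the highest input value of all. The log2 difference of Scml2 was 1.62 (SE 0.37, edgeR adjusted p = 0.04939) in mutants and 1.42 (SE 0.23, edgeR adjusted p = 0.02525) in wild type.

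Usp7, whose product is a deubiquitinase of many substrates and a partner of SCML2, had 412, 380, 319.8 and 395 CPM in mutant IP, against 269, 235, 283 and 299.6 CPM in mutant input. In wild type Usp7 had 442, 338 and 467 CPM in IP and 323, 302 and 300.01 CPM in input. The smallest IP value in each genotype exceeded the largest input value of that genotype. For Usp7 the log2 difference was 0.47 (SE 0.10, edgeR adjusted p = 0.04302) in mutants and 0.73 (SE 0.13, edgeR adjusted p = 0.032) in wild type, each from its own fit. On the scale shared by all 14 libraries the mean log2 ratio of Usp7 was 0.469 in mutants and 0.418 in wild type.

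Mysm1, the H2A deubiquitinase, had 25.1, 17.2, 22.0 and 29.2 CPM in mutant IP, against 46.5, 35.4, 49.3 and 48.9 CPM in mutant input. In wild type Mysm1 had 40.6, 31.3 and 39.0 CPM in IP and 38.3, 42.5 and 35.5 CPM in input. Mutant IP lay below mutant input in each of the 4 animals, whereas IP and input overlapped in wild type. The log2 difference of Mysm1 was −0.96 (SE 0.27, edgeR adjusted p = 0.08941) in mutants and 0.24 (SE 0.18, edgeR adjusted p = 0.4015) in wild type, neither past the threshold in that fit. Mysm1 in mutants was called lower in IP in 6 of 14 alternatives (adjusted p from 1.829e-07 to 0.3402), among them DESeq2 and the fit without the animal as a block (edgeR adjusted p = 0.03924). Of 22918 features in mutants, DESeq2 called 6847 lower and the fit without the block 1787. On log2 TPM in limma the sign turned in mutants, with 1.35 (adjusted p = 0.09509), and in wild type Mysm1 was called higher, with 1.08 (adjusted p = 0.02555). With all 14 libraries fitted together the wild-type value was −0.07.

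**Figure D3:**
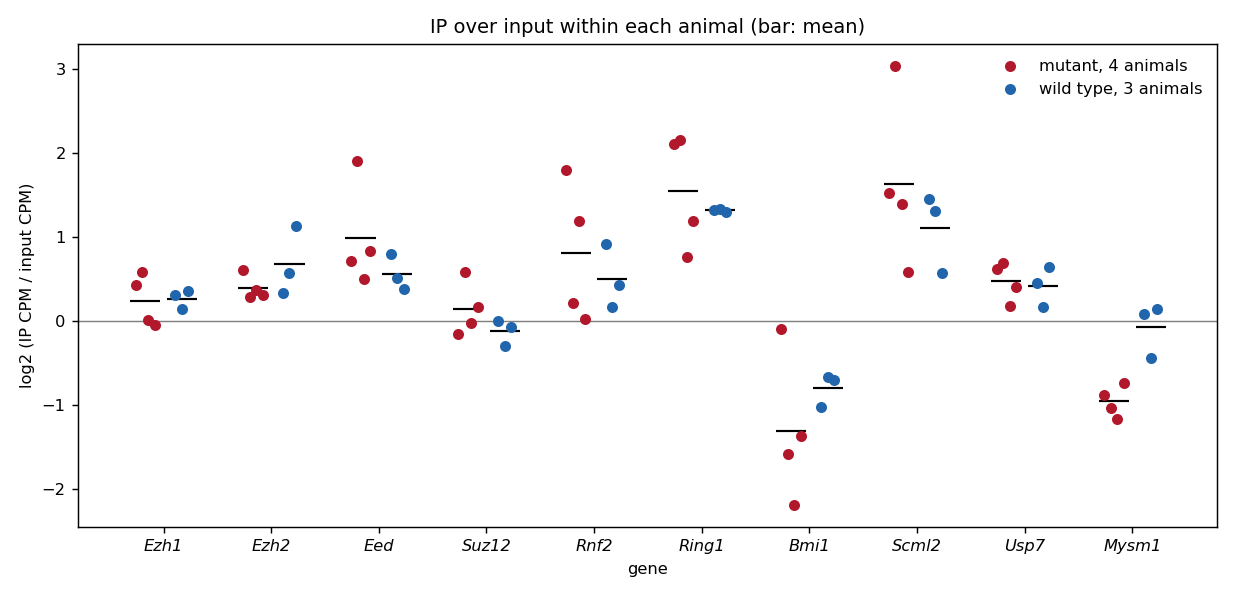
Log2 ratio of IP to input CPM within each animal (vertical axis) for the 10 genes, mutants left of wild type, with points for animals and bars for means. All points of Ring1 and Scml2 lie above 0 and all points of Bmi1 below 0, and the Mysm1 points of mutants (−1.17 to −0.75) lie below those of wild type (−0.44 to 0.14).

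The genotypes were then compared within each fraction. None of the 10 genes passed an adjusted p of 0.05 between mutant and wild-type input in edgeR, nor did any in DESeq2, in limma on log2 TPM or when any animal was left out. In input 3 of 36572 features, or 0.0082%, were called by edgeR, and 6.36% had an unadjusted p under 0.05, among them 2 of the 10 genes, Suz12 and Bmi1. Suz12 in input averaged 52.1 ± 12.1 CPM in mutants and 73.8 ± 9.72 CPM in wild type (SD, n = 4 and 3), with a log2 fold change of −0.50 (SE 0.21, unadjusted p = 0.04662, edgeR adjusted p = 0.7595). Bmi1 in input averaged 61.2 ± 7.77 CPM in mutants and 76.8 ± 6.68 CPM in wild type, with a log2 fold change of −0.32 (SE 0.13, unadjusted p = 0.04684, edgeR adjusted p = 0.7615). For both genes, and for Usp7 with 272 ± 27.2 CPM in mutant input and 308 ± 12.6 CPM in wild-type input, each mutant value lay below each wild-type value, though for Usp7 by less than 1 CPM (299.6 CPM in mutant 94 against 300.01 CPM in wild-type animal 17). The exact two-sided permutation test of the 7 animals gave p = 0.0571 for each of the 3 genes, and the smallest p that its 35 splits allow is 0.0286. Over 31357 features 13.2% did not overlap between genotypes in input. The lower sums of late pachytene markers in mutant input given above stand beside these values, and their part in them was not tested.

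The other 7 genes overlapped between genotypes in input. Their log2 fold changes of mutant over wild type in input ranged from −0.16 for Ring1 to 0.23 for Mysm1, each smaller than 2 times its SE. Scml2 in input averaged 41.7 ± 21.8 CPM in mutants and 37.5 ± 0.811 CPM in wild type, so that the mutant values spanned all wild-type values.

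In IP none of the 10 genes passed an adjusted p of 0.05 in edgeR, in DESeq2, in limma on log2 TPM or with any animal left out. Of 26186 features 0.00764% were called and 11.6% had an unadjusted p under 0.05, among them 1 of the 10 genes, Mysm1. In IP Mysm1 averaged 23.4 ± 5.05 CPM in mutants and 37.0 ± 4.96 CPM in wild type (SD, n = 4 and 3), and the log2 fold change was −0.64 (SE 0.25, unadjusted p = 0.03637, edgeR adjusted p = 0.3395). Every mutant IP library had less Mysm1 than every wild-type IP library (exact two-sided permutation p = 0.0286, the smallest that 35 splits allow), while 13.2% of 24591 features did not overlap in IP. The numbers of genes detected did not overlap between the genotypes in IP either, as given above, and their part in the Mysm1 values was not tested. The other 9 genes overlapped.

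The Mysm1 difference was in counts and was not kept per length. In TPM Mysm1 had 18.6, 42.4, 8.20 and 13.1 in mutant IP, against 12.2, 11.9 and 15.4 in wild-type IP. The genotypes overlapped, since the mutant value of 8.20 TPM lay below all wild-type values and that of 13.1 TPM lay among them. Limma on log2 TPM gave 0.38 for mutant over wild type in IP (SE 0.54, unadjusted p = 0.5012, adjusted p = 0.785). A difference in the opposite direction was therefore not shown. The full-length coding transcript Mysm1-201, of 7420 nt, took 80.3, 0, 89.1 and 61.9% of the Mysm1 counts in mutant IP and 88.3, 87.9 and 85.6% in wild-type IP. In mutant IP 69 the counts went to 4 processed transcripts, of which Mysm1-209 of 435 nt took 38.4%. The lower late pachytene sums of mutant IP stand beside the Mysm1 values too, and their part was not tested.

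Scml2 in IP averaged 123 ± 46.3 CPM in mutants and 83.2 ± 23.4 CPM in wild type, with a log2 fold change of 0.59 (SE 0.32, edgeR adjusted p = 0.6943). The values overlapped, since mutant IP 12 lay below 2 of the 3 wild-type IP libraries. Bmi1 in IP averaged 27.3 ± 15.9 CPM in mutants and 44.1 ± 2.74 CPM in wild type, with a log2 fold change of −0.67 (SE 0.42, edgeR adjusted p = 0.8542). Mutants 69, 93 and 94 lay below all wild-type animals and mutant 12 lay above all of them. The remaining 7 genes had log2 fold changes of −0.24 (Suz12) to 0.26 (Rnf2) in IP. Ezh1 was nearest to 0, with 53.7 ± 11.5 CPM in mutant IP and 54.3 ± 3.06 CPM in wild-type IP.

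**Figure D4:**
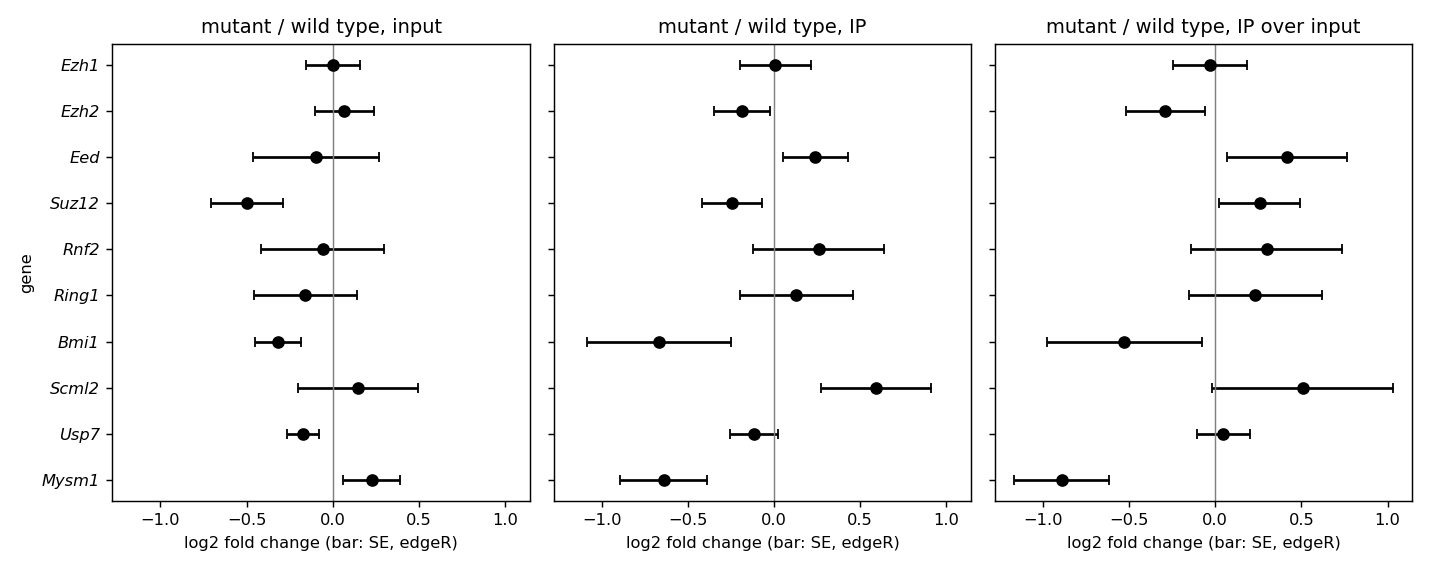
Log2 fold change of mutant over wild type (horizontal axes, bars: SE, edgeR) for the 10 genes in input, in IP and in IP over input. Mysm1 lies at −0.64 in IP and −0.89 in IP over input, and no gene passed the adjusted threshold in any panel.

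The difference between mutants and wild type in the log2 ratio of IP to input was tested next. Input holds RNA of all testis cells, and IP holds ribosome-bound RNA of tagged germ cells. Ribosome loading, cell composition and pull-down background therefore cannot be told apart in this ratio. None of the 10 genes was called, and neither was any of 16015 features (0.0%) in edgeR, while DESeq2 called 975 features and 0 of the 10 genes. At an unadjusted p under 0.05 there were 7.22% of features and 1 of the 10 genes, Mysm1. The log2 ratio of Mysm1 was −0.89, −1.04, −1.17 and −0.75 in mutants, against 0.09, −0.44 and 0.14 in wild type. The 2 genotypes did not overlap, with an exact two-sided permutation p of 0.0286, the smallest possible, and 6.23% of 10310 features showed no overlap in this ratio. The edgeR difference was −0.89 (SE 0.28, unadjusted p = 0.01312, adjusted p = 0.471), and over the alternatives its adjusted p ranged from 0.08332 to 1. From TPM this difference was not kept, with 0.26 in limma (SE 0.62, unadjusted p = 0.6804, adjusted p = 0.9453). The median of the same difference was −0.20 over all annotated features tested and −2.06 over 9 Sertoli markers, 9 of which were below 0. It was −2.88 over 7 macrophage markers, −3.02 over 6 vessel and blood markers, −1.83 over 6 Leydig markers and −0.66 over 7 myoid and stroma markers. Over germ cell markers the median was 0.0091 for 8 of spermatogonia, 0.036 for 10 early meiotic, −0.16 for 9 late pachytene and −0.67 for 7 round spermatid. The part of these shifts in the Mysm1 value was not tested.

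The difference in IP over input was 0.51 (SE 0.53) for Scml2, −0.53 (SE 0.45) for Bmi1, 0.41 (SE 0.35) for Eed and −0.29 (SE 0.23) for Ezh2. The animals of the 2 genotypes overlapped in each of these, and without mutants 12 and 69 the difference of Scml2 was −0.12. For Ring1, Rnf2, Suz12, Usp7 and Ezh1 it lay between −0.03 and 0.30, with SEs of 0.15 to 0.44.

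Transcripts were then examined, because RSEM had divided each gene's counts among them. The transcripts described here were chosen after their values were seen. Scml2 counts were divided differently in IP and input: Scml2-205, the transcript with the upstream start whose exons 2 and 3 are printed above, took 93.4, 85.7, 93.5 and 91.5% of Scml2 counts in mutant IP, against 31.8, 47.3, 40.9 and 45.3% in mutant input. In wild type Scml2-205 took 92.8, 88.7 and 84.3% in IP and 29.3, 39.1 and 35.8% in input. The lowest IP share was 84.3% and the highest input share 47.3%, with the genotypes alike in order and overlapping in IP. Scml2-201, with the long 3′ untranslated region, took 0, 6.05, 2.52 and 8.50% in mutant IP and 68.1, 52.7, 56.2 and 38.1% in mutant input. In wild type Scml2-201 took 6.92, 3.83 and 13.6% in IP and 68.0, 45.4 and 57.6% in input. The pattern held in every animal.

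The transcripts were then tested with 1 feature per transcript. In mutants 0 of 24 transcripts of the 10 genes were called, where 1.91% of 34124 transcripts were. Scml2-205 there differed by 2.71 (log2, SE 0.49, edgeR adjusted p = 0.05469), and the adjusted p ranged from 0.0004399 to 0.1713 over 8 alternatives. In wild type 4 of 38 transcripts of the 10 genes were higher in IP and none lower, where 6.58% of 56600 transcripts were called and 4.97% were higher. Scml2-205 differed by 2.72 (SE 0.34, edgeR adjusted p = 0.03525) and Scml2-201 by −1.61 (SE 0.33, edgeR adjusted p = 0.07662). The others called were Rnf2-202 at 2.80 (SE 0.36, edgeR adjusted p = 0.03567), Ring1-201 at 1.59 (SE 0.16, edgeR adjusted p = 0.02693) and Usp7-208 at 1.15 (SE 0.12, edgeR adjusted p = 0.02811). All 4 calls were lost when any 1 of the 3 animals was left out. Between genotypes no transcript of the 10 genes was called in input, in IP or in IP over input, where 0.0%, 0.0% and 0.0118% of transcripts were called by edgeR.

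Rnf2 counts were also divided unequally. Rnf2-202, the processed transcript of 570 nt, took 62.7, 84.6, 47.9 and 51.2% of Rnf2 counts in mutant IP, against 31.9, 23.4, 28.4 and 22.8% in mutant input. In wild type Rnf2-202 took 62.7, 70.4 and 64.7% in IP and 13.5, 21.5 and 14.1% in input. Every IP share lay above every input share. Rnf2-201 took 0, 0, 50.2 and 0% in mutant IP and 29.1, 76.6, 67.1 and 73.7% in mutant input, against 19.0, 0 and 10.8% in wild-type IP and 77.4, 72.8 and 85.3% in wild-type input. Rnf2-201 was listed at 0 in 4 libraries in which the gene had between 1473 and 2101 counts. Since 544 of the 570 bases of Rnf2-202 lie inside exons of Rnf2-201, the 2 can be told apart mainly at the first exon printed above and outside the Rnf2-202 span.

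Usp7 counts were shared mainly by Usp7-208, Usp7-207 and Usp7-210. Usp7-208, which starts 53966 nt downstream of Usp7-207 and has 634 nt of 3′ untranslated region against 1185 nt, took 22.9, 39.9, 61.9 and 61.0% in mutant IP and 20.7, 68.2, 30.5 and 28.0% in mutant input. In wild type Usp7-208 took 51.9, 65.1 and 46.0% in IP and 46.1, 32.2 and 39.3% in input. IP and input overlapped in both genotypes, in wild type by less than 0.1 of a percentage point. Suz12 gives a further view of how the split behaves: Suz12-206, with 15 exons where Suz12-201 has 16, took 94.8% of Suz12 counts in mutant input 12, 100% in mutant IP 69 and 93, and 0% in each other library. Of 86 annotated transcripts of the 10 genes, 22 to 29 were above 0 in mutant IP, 38 to 44 in wild-type IP, 26 to 58 in mutant input and 42 to 55 in wild-type input.

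**Figure D5:**
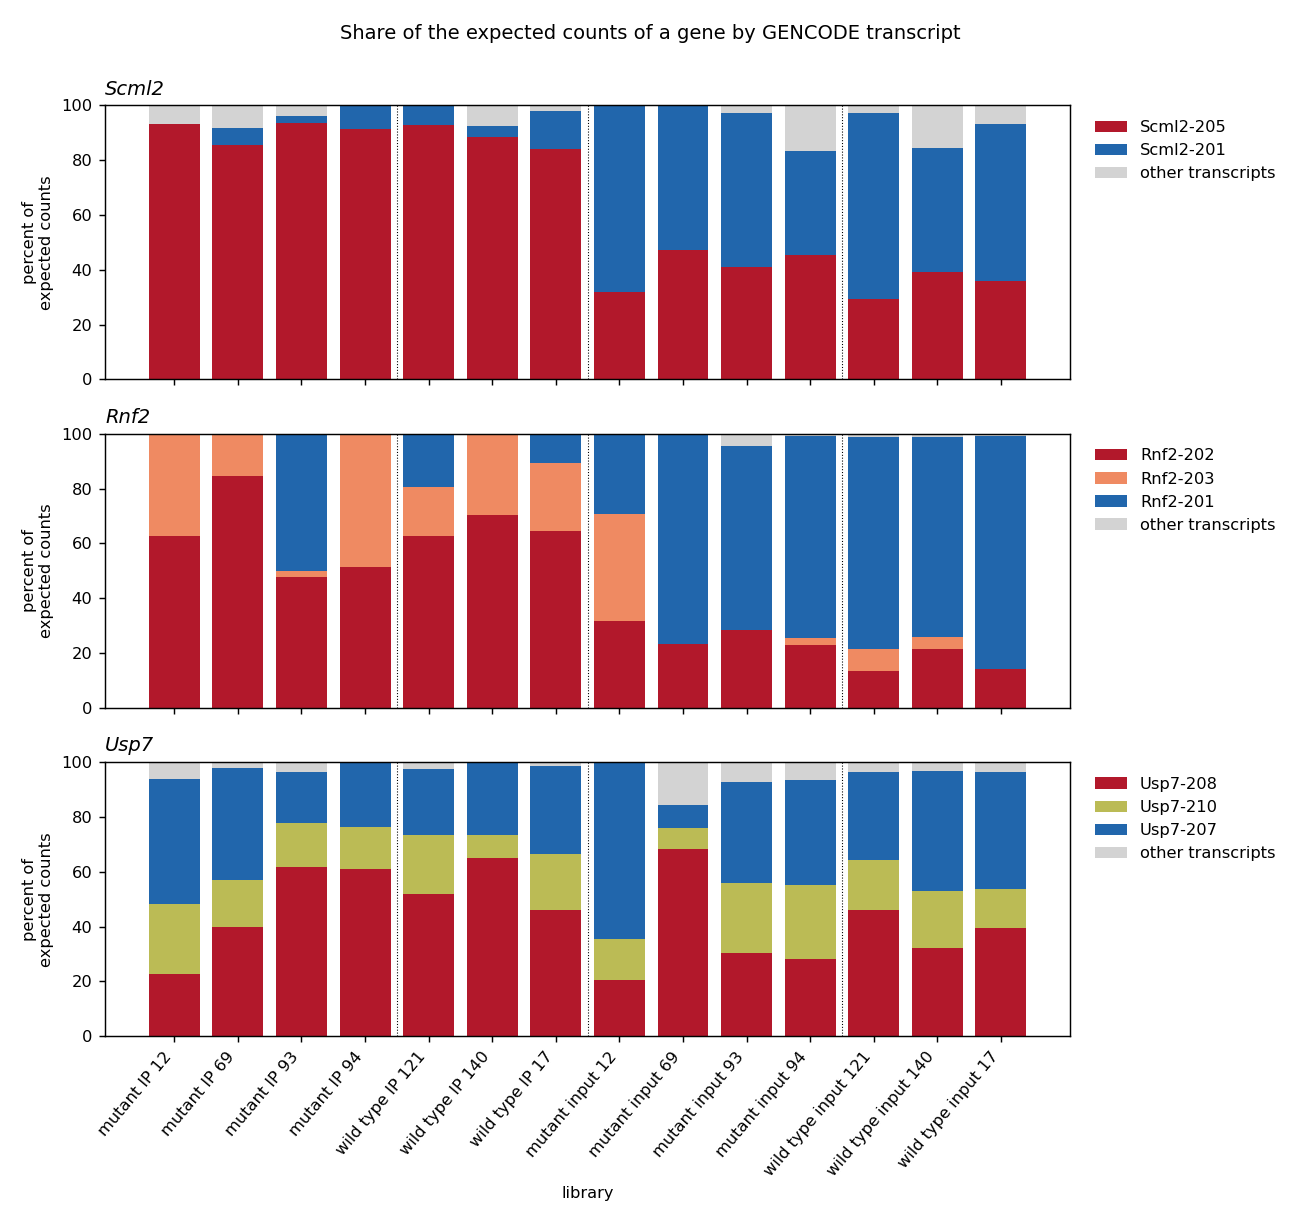
Percent of the expected counts of Scml2, Rnf2 and Usp7 given to each transcript (vertical axis) in the 14 libraries, with mutant IP, wild-type IP, mutant input and wild-type input from left to right. Scml2-205 takes 84.3% or more in every IP library and 47.3% or less in every input library.

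Levels were compared between genes per length, as TPM summed over a gene's transcripts. In input Usp7 was highest, with 49.7 ± 6.41 TPM in mutants and 63.7 ± 11.6 TPM in wild type (SD, n = 4 and 3). Rnf2, Ezh2 and Bmi1 followed, with means between 23.6 and 30.6 TPM in mutants and between 30.1 and 31.1 TPM in wild type, and their ranges overlapped so that no order among them can be read. Eed had 17.3 ± 5.59 TPM in mutant input and 21.0 ± 1.96 TPM in wild-type input, and Suz12 11.1 ± 1.51 TPM in mutants and 15.1 ± 0.654 TPM in wild type. Ezh1, Scml2, Mysm1 and Ring1 were the lowest, between 5.57 and 7.86 TPM in mutant input and between 6.16 and 8.93 TPM in wild-type input, and neighbours in that order overlapped, except that Scml2 (7.28 to 8.09 TPM) lay above Mysm1 (5.36 to 7.12 TPM) in wild type.

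In IP the order per length was headed by Rnf2, with 186 ± 52.9 TPM in mutants and 178 ± 24.2 TPM in wild type, of which the short Rnf2-202 accounted for 70.6% or more in each IP library. Usp7 had 147 ± 26.2 TPM in mutant IP and 145 ± 33.7 TPM in wild-type IP, and the 2 genes overlapped. Ezh2 with 79.3 ± 29.1 TPM and 78.9 ± 8.93 TPM, and Eed with 58.4 ± 13.4 TPM and 51.8 ± 10.9 TPM in mutant and wild-type IP, came next. Scml2 had 54.8 ± 20.1 TPM in mutant IP and 36.0 ± 8.87 TPM in wild-type IP, and its range overlapped those of Bmi1 and Ring1 in wild-type IP, so that no order among the 3 can be read there. Suz12, with 17.0 ± 1.91 TPM in mutant IP and 21.8 ± 3.84 TPM in wild-type IP, and Mysm1, with 20.6 ± 15.2 TPM and 13.2 ± 1.97 TPM, were lowest in one genotype each.

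Within each pair of paralogs the ratio of levels does not depend on library scaling. Ezh2 over Ezh1 in TPM was 4.91, 1.17, 5.86 and 3.49 in mutant IP and 4.10, 4.36 and 4.02 in wild-type IP, and 3.58, 3.79, 4.49 and 3.75 in mutant input and 4.06, 3.31 and 2.98 in wild-type input. Ezh2 thus exceeded Ezh1 per length in all 14 libraries, least in mutant IP 69. In counts Ezh2 over Ezh1 was 1.74, 0.997, 1.81 and 1.78 in mutant IP and 1.54, 1.23, 1.41 and 1.40 in mutant input. In wild type it was 1.77, 1.64 and 1.82 in IP and 1.74, 1.21 and 1.07 in input. Short transcripts weigh on the TPM ratio. Ezh2-206 of 512 nt took 61.5% of Ezh2 TPM in mutant IP 94, and Ezh1-206 of 662 nt took 35.3% of Ezh1 TPM in mutant IP 69. Rnf2 over Ring1 in TPM was 5.46, 3.35, 16.1 and 3.51 in mutant IP and 7.47, 4.99 and 6.16 in wild-type IP, and 4.56, 4.82, 8.46 and 4.55 in mutant input and 3.87, 3.62 and 3.85 in wild-type input. In counts, which are not divided by length, Rnf2 over Ring1 was 1.53, 0.812, 6.41 and 1.36 in mutant IP, against 1.90, 3.12, 4.75 and 3.04 in mutant input. In wild type that ratio was 2.21, 1.31 and 1.75 in IP and 2.94, 2.96 and 3.18 in input. It was lower in IP than in input in every animal except mutant 93.

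Other genes of these pathways were taken from lists of further PRC2 subunits, H3K27 demethylases, PCGF, CBX, PHC and variant PRC1 subunits, SCM and MBT domain proteins, other H2A deubiquitinases and the XY body ubiquitin axis, of which 61 genes were in the tables. In mutants 8 of 58 tested were higher in IP and 5 lower, against 6.35% and 3.56% of all features, with a median of 0.34. Of 15479 annotated features, 1329 were higher and 652 lower. The 8 included Mdc1, the scaffold that spreads the DNA damage response over the XY body, at 1.27 (edgeR adjusted p = 0.001789), H2afx, which encodes H2AX, at 3.81 (edgeR adjusted p = 0.001869) and Phf1, a Polycomb-like partner of PRC2, at 1.47 (edgeR adjusted p = 0.004823). Those lower included Asxl2, of the complex that takes ubiquitin off H2A with BAP1, at −1.97 (edgeR adjusted p = 0.005399), the deubiquitinase Usp46 at −2.11 (edgeR adjusted p = 0.00947) and Mga, a variant PRC1 subunit, at −0.82 (edgeR adjusted p = 0.01893). Asxl2 had 19.9, 17.9, 21.3 and 29.8 CPM in mutant IP and 92.1, 81.0, 74.1 and 96.2 CPM in mutant input, against 34.2, 18.3 and 26.4 CPM in wild-type IP and 94.8, 105 and 93.6 CPM in wild-type input. Asxl2 was lower in IP than in input in all 7 animals.

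In wild type 22 of 60 pathway genes were higher in IP than in input and 2 lower, against 13.0% and 6.37% of all features, with a median log2 difference of 0.52. Of 19175 annotated features, 3844 were higher and 1407 lower. The 10 PRC2 subunits tested gave 5 of the 22, the 10 variant PRC1 subunits 5 and the 7 XY body genes 5. Phf1 differed by 1.81 (SE 0.09), L3mbtl2, a subunit of a variant PRC1, by 1.51, and Mdc1 by 1.47 (edgeR adjusted p = 0.006344 each). Asxl2 fell by 1.62 on the log2 scale (edgeR adjusted p = 0.026), and Usp16, an H2A deubiquitinase, fell by 0.48 (edgeR adjusted p = 0.04627).

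Between genotypes 0 of the pathway genes were called by edgeR, in input, in IP or in IP over input, where 3 of 61, 5 of 59 and 1 of 51 had an unadjusted p under 0.05, beside 6.36%, 11.6% and 7.22% of all features. DESeq2 called 2 in input, L3mbtl4 and Mdc1, where it called 3.13% of all features, and 2 in IP, Mdc1 and Pcgf6, where it called 9.56%, and limma on log2 TPM called 0. The smallest unadjusted p values were those of Mdc1, with log2 fold changes of −0.57 in input (SE 0.12, unadjusted p = 0.001892, edgeR adjusted p = 0.3473) and −0.45 in IP (SE 0.11, unadjusted p = 0.00408, edgeR adjusted p = 0.1141). Mdc1 had 653, 586, 614 and 760.4 CPM in mutant IP, against 989, 822 and 903 CPM in wild-type IP, and 228, 247, 292 and 321 CPM in mutant input, against 455, 388 and 376 CPM in wild-type input, without overlap in either fraction, as for 13.2% of features in input and 13.2% in IP. All 10 late pachytene markers were below 0 in both fractions as well, with median log2 fold changes of −0.67 in input and −0.77 in IP, and their part in the Mdc1 values was not tested. By the same rule the values named for input were L3mbtl4 at 0.77, Rbbp7 at 0.33 and Kdm2b at −0.36, and for IP E2f6 at 0.92, Bcor at 1.39 and Pcgf6 at −0.56. For IP over input they were Pcgf5 at 0.70, Sfmbt2 at 3.08, Usp46 at −0.88 and Pcgf3 at −2.24. Single libraries weigh on some of these values. Pcgf5 had 33.2 CPM in mutant input 69 (other mutant inputs 97.1 to 150). Sfmbt2 had 3.53 CPM in mutant input 12 (other mutant inputs 43.5 to 166) and 2.54 CPM in wild-type IP 17 (other wild-type IP 31.6 and 102). Pcgf3 had 10.2 CPM in wild-type input 121 (other wild-type inputs 45.8 and 51.0) and 2.45 CPM in mutant IP 69 (other mutant IP 16.6 to 48.8).

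Last, genes whose CPM varied most like 3 of the 10 genes across the 14 libraries were looked up, by the root mean square difference of centred log2 CPM over 8335 protein-coding genes. This is a description of 14 libraries that share animals and scaling. Nearest to Scml2 were Tipin, a replication fork protein, with 0.28, then Acly, Rrp9, Ncl and Denr, the last with 0.30. Nearest to Ezh1 were Haus3 with 0.12, then Tmem9b, Rab11a, Dstyk and Caprin1, and nearest to Usp7 were Gtf3c3 and Tax1bp1 with 0.10 each, then Angel2, Son and Ddx5. The distances of Scml2 to its neighbours were larger than those of Usp7 and Ezh1.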

How the data were processed

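The deposited expected counts and TPM values came from the authors' RSEM 1.3.3 run on GRCm38, against Ensembl and assembled testis transcripts, and are given per transcript without further normalization. As the methods describe, libraries were stranded, depleted of rRNA and paired end, rRNA reads were removed with Bowtie2 and reads trimmed with Trimmomatic. TPM is scaled over all entries of a library, spike-ins among them. Here 133445 of 133849 Ensembl transcripts were matched to GENCODE M21 and summed by symbol, 48888 assembled transcripts were kept singly and 92 spike-ins left out, which gave 102531 features. Assembled transcripts may include further isoforms of the 10 genes and were not added to them.

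Rounded counts were tested in edgeR 4.0.16 (R 4.3.3; TMM, filterByExpr, robust quasi-likelihood fit), with p-values adjusted after Benjamini and Hochberg and a threshold of 0.05. IP against input took the animal as a block, since input and IP of 1 number come from 1 animal, and deviations of such pairs correlated by 0.01 to 0.07. Each replicate is 1 animal. The genotype difference in IP/input left out features at 0 in any input. Single values were compared by an exact permutation test of 35 splits. Alternatives were RLE factors, DESeq2 1.42.0, no filter, at least 10 counts, limma 3.58.1 on log2(TPM + 0.1), annotated genes alone, no block, all 14 libraries together, an unequal-variance test of TPM ratios, annotated-gene TPM and leaving out each animal. Chosen after the data were seen were leaving out mutants 12 and 69, the newer dispersion of edgeR and 1 feature per transcript. Tables and figures used Python 3.11.15, numpy 2.4.6, pandas 2.3.3 and matplotlib 3.10.9.

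The 10 genes and the lists were chosen with earlier results of these data known. All 10 genes are named in every comparison. Of the pathway lists, up to 3 called genes per direction, or up to 2 by smallest p where none was called, are named, and for Scml2, Ezh1 and Usp7 the 5 genes of most similar pattern among those with a mean log2 CPM of at least 3.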

Additional observations from a re-analysis of the deposited data

Results flagged for a closer look

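Of the 30 sets of 4 mutant values examined for the 10 genes (CPM in input, CPM in IP and their log2 ratio), 1 held a sample far from the others, where chance gives about 1 in 20. Suz12 in IP was 69.0 CPM in mutant 94 and 51.5, 51.5 and 54.0 CPM in the other 3 mutants, a gap of 0.859 of the range. In input the same animal had 61.5 CPM of Suz12, the highest of the 4 mutants.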

How the results depend on the processing

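With 3 and 4 animals and no IP from untagged animals, small differences and background of the pull-down could not be measured here. Between genotypes 0 of the 10 genes were called under any alternative run. In those comparisons the number of features called was 3 in input, 2 in IP and 0 for IP/input. It was 1143 (352 higher, 791 lower), 2504 (426 and 2078) and 975 (32 and 943) in DESeq2, 0, 1838 and 1 in limma on log2 TPM, 30 and 76 without a filter in input and IP, and 1 in IP with a minimum of 10 counts. The count was 7 and 289 with all 14 libraries fitted together, 6 in IP with the newer dispersion, 0, 1 and 76 without mutants 12 and 69, 0, 0 and 2 per transcript, 1 for IP/input with annotated genes alone and 686 by the unadjusted test of TPM ratios. Leaving out 1 animal gave 0 to 2 in input, 0 to 4 in IP and 0 to 10 for IP/input.

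For IP against input, 2271 of 22918 features were called in mutants and 6761 of 34864 in wild type. There were 10039 (3192 higher, 6847 lower) in mutants and 18846 (7984 and 10862) in wild type in DESeq2, 3937 and 11325 with at least 10 counts, 6042 and 10635 in limma, 4999 and 11613 with the newer dispersion, 3758 and 2180 with all 14 libraries, 653 and 3725 per transcript, and 12 in mutants without animals 12 and 69. Leaving out 1 animal gave 961 to 1585 in mutants and 0 to 3754 in wild type. DESeq2, limma and the fit without the replicate block tested 22918 features in mutants and 34864 in wild type. With at least 10 counts 9872 and 19518 were tested, and with all 14 libraries 41559 in each. With annotated genes alone 2630 of 15497 features were called in mutants and 8709 of 19175 in wild type. Without a filter 1794 of 57202 and 5840 of 66022 were called. Without the replicate block, 3721 were called in mutants, 10270 in wild type and 388 for IP/input between genotypes (2 higher, 386 lower). Of the 10 genes, the 3 called in mutants, all higher, became 0 with RLE factors, without a filter, without any 1 animal or without animals 12 and 69. They became 6 in DESeq2, with all 14 libraries and with the newer dispersion (4 higher, 2 lower each), 5 with at least 10 counts (3 and 2), 7 in limma (all higher), 4 with annotated genes alone (2 and 2) and 4 without the replicate block (3 and 1). The 6 in wild type, all higher, became 0 with all 14 libraries, 0 to 2 without 1 animal, 5 without a filter, 8 in limma (all higher), and 8 in DESeq2, with at least 10 counts, with annotated genes alone, without the replicate block and with the newer dispersion (7 higher, 1 lower each). RLE factors shifted all values by −0.13 in mutant IP against input and by 0.105 in mutant against wild-type IP. The median level of the 10 genes in wild-type IP was 35.8 TPM, and 41.4 TPM when rescaled to annotated genes.

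The following log2 values had the opposite sign to those reported, and the cause was not tested. In input, Ezh1 was 0.062 with RLE factors, 0.063 in DESeq2, 0.067 with at least 10 counts, 0.022 with annotated genes alone, 0.0069 with the newer dispersion and 0.051 without mutants 12 and 69. Without those 2 animals Eed was 0.026, Rnf2 0.36 and Ring1 0.058 in input, Ezh1 −0.24 and Ring1 −0.23 in IP, and Ring1 −0.34, Scml2 −0.12 and Usp7 −0.13 in IP/input. In limma, Ezh2 was −0.014, Rnf2 0.0033 and Scml2 −0.16 in input, Usp7 0.034 and Mysm1 0.38 in IP, Bmi1 0.085 and Mysm1 1.35 in mutant IP against input, Bmi1 0.018 in wild-type IP against input, and Ezh1 0.46, Bmi1 0.067 and Mysm1 0.26 in IP/input between genotypes. In the test of TPM ratios those 3 were 0.52, 0.74 and 0.52. Ezh1 in IP/input was 0.018 with RLE factors, 0.019 in DESeq2 and 0.054 with at least 10 counts, and in IP it was −0.018 with all 14 libraries. Suz12 in mutant IP against input was −0.027 with at least 10 counts and −0.00085 with annotated genes alone, and in wild type −0.12 with all 14 libraries, where Mysm1 was −0.072. Leaving out 1 animal gave −0.075 to 0.071 for Ezh1, −0.052 to 0.23 for Ezh2, −0.31 to 0.16 for Eed, −0.24 to 0.19 for Rnf2 and −0.22 to 0.34 for Scml2 in input. In IP it gave −0.13 to 0.13 for Ezh1, −0.17 to 0.45 for Rnf2 and −0.038 to 0.35 for Ring1, and in IP/input −0.24 to 0.0058 for Ezh1, −0.025 to 0.50 for Rnf2 and −0.23 to 0.055 for Usp7. For Usp7-207 it gave −0.41 to 0.74 in mutant and −0.11 to 0.39 in wild-type IP against input.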
